A study of Mus musculus with 9 samples.

Results

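Single cell RNA-seq of femur bone marrow holds a rare population with the RNA of basophils, granulocytes that bind IgE. Cells of this kind were taken from the marrow of 9 female mice aged 9 to 10 weeks, 3 each of the inbred strains NZB (New Zealand Black) and NZW (New Zealand White) and of their hybrid NZBWF1, a model of systemic lupus erythematosus bred from an NZW mother and an NZB father. The mice came from a single vendor in the same delivery, received no treatment, and gave 1 library of unsorted marrow each, so that strain is the only labelled difference between the groups. Cells were chosen by their own measured UMIs (unique molecular identifiers, each a counted RNA molecule). A cell entered the population if its barcode held 1000 UMIs and 500 genes or more, with no more than 10% of the UMIs mitochondrial, at least 3 UMIs of Mcpt8, Prss34, and Fcer1a together, and 0 UMIs of Cd79a (B cells) and Siglech (plasmacytoid dendritic cells). This left 185 of 39051 kept cells, 72 of 10847 in NZB, 53 of 14402 in NZW, and 60 of 13802 in NZBWF1. These cells are called gated cells below.

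Basophils and mast cells arise from marrow precursors that depend on the transcription factor GATA2, and they share the high-affinity IgE receptor, histamine, and granule proteases. Basophils mature in the marrow and leave it for the blood, whereas mast cell precursors leave it early and acquire most of their proteases in tissue. Mcpt8 and Prss34 are serine proteases of mouse basophils, Fcer1a and Ms4a2 are the alpha and beta chains of the IgE receptor, and Cpa3 is a carboxypeptidase stored in the granules of both cell types.

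The stretches before the start of these 5 genes are shown because they belong to the genes that chose or define the gated cells. The levels of Mcpt8, Prss34, and Fcer1a are fixed by the choice. They are the RefSeq promoter windows of build GRCm38.p6 up to the transcription start, each read 5′ to 3′ on the strand of its gene, with the letters AGATAA or their reverse complement TTATCT in capitals. They lie at chr14:56085274-56085447 (minus strand, Mcpt8), chr17:25298144-25298393 (plus, Prss34), chr1:173227230-173227479 (minus, Fcer1a), chr3:20242182-20242431 (minus, Cpa3), and chr19:11623720-11623969 (minus, Ms4a2).
Mcpt8: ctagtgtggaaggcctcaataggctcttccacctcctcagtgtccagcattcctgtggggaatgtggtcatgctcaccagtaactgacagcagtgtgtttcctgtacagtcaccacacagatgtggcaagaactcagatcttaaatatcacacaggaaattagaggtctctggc
Prss34: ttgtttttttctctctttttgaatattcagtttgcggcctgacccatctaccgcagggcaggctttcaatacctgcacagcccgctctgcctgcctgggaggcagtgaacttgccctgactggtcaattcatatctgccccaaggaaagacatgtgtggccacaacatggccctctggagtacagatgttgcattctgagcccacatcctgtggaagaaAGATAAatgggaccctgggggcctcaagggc
Fcer1a: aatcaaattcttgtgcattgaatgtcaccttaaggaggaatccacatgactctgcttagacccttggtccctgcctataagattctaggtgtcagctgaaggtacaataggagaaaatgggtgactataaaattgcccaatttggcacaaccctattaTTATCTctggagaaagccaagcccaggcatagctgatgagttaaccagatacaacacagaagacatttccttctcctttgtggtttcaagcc
Cpa3: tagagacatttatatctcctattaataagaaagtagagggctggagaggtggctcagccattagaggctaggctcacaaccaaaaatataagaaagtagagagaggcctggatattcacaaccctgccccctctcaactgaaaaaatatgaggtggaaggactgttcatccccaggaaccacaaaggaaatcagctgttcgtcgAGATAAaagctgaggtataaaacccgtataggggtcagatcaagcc
Ms4a2: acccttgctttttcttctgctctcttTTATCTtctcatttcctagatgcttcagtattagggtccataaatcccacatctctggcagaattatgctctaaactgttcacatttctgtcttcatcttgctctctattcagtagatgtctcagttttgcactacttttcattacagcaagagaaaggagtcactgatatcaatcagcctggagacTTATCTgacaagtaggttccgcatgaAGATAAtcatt
The hexamer, a form of the GATA element, was found in 4 of these 5 windows. It began 31 bases before the start of Prss34, 92 before Fcer1a, 46 before Cpa3, and 224, 37, and 11 before Ms4a2, and the Mcpt8 window, cut to 174 bases where exon bases were left out, held no match. On either strand it occurred in 3279 of 32817 such windows (9.99%), and among the 20 genes of highest ratio described next, 11 others with a window held it in 1. A match of letters is a description of the window and not a binding site.

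The gated cells carried the RNA of basophils. Prss34 stood at 20293 CPM (UMIs of the gene, scaled to a total of 1e6) in gated cells against 1.59 in all other kept cells, Mcpt8 at 7765 against 2.68, and Fcer1a at 970 against 0.462. These 3 chose the cells, and every gene of the cells is bound up with that choice, so the ratios are given as a description without a test. Cpa3, which was not used, reached 2072 CPM against 3.11 and was seen in 159 of 185 gated cells (85.9%) but in 0.381% of other cells. Ms4a2 followed with 906 against 1.43 and Gata2 with 538 against 7.82. Both were higher than in the other cells of the same mouse in 9 of 9 mice. Cd200r3, a surface receptor of basophils and mast cells, stood at 475 against 0.438, and Csrp3, a LIM domain protein best known from muscle, at 872 against 8.62. Cyp11a1, which starts steroid synthesis, stood at 303 against 1.09. The cytokines Csf1 (86.8 against 1.55) and Ccl3 (129 against 2.53), the granule protease Gzmb (128 against 1.71), Poln, Igfbp7, Scin, Gpr34, Rapsn, Cdh1, and the antisense transcript Gm11697 complete the 20 genes of highest ratio with Cma1. Of 2750 genes with at least 50 CPM in gated cells, 46 were over 10-fold above the other cells and 12 over 100-fold.

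**Figure D1:**
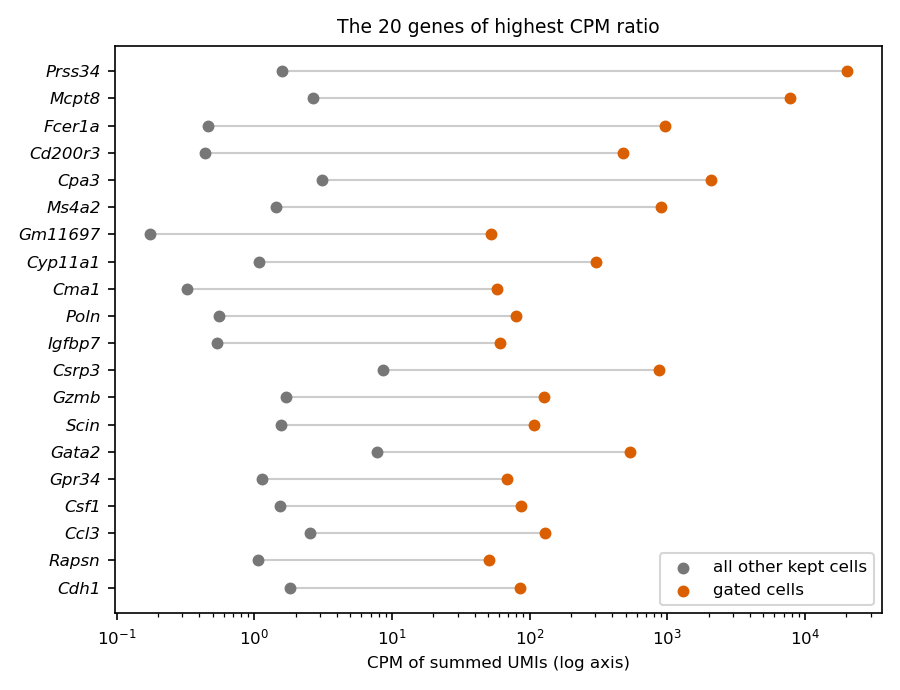
CPM of named genes in the 185 gated cells and in all other kept cells, on a log axis, with each gene as a pair of points joined by a line. Prss34, Mcpt8, and Fcer1a, which chose the cells, lie at 20293, 7765, and 970 CPM in gated cells, and Cpa3, which did not, at 2072.

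The name mast cell precursor was borne out only in part. Of 16 mast cell genes, 5 were over 2-fold above the other cells, against 15.5% of all genes with a UMI in gated cells. Of the same 16, 8 had 0 UMIs in the gated cells, among them the proteases Mcpt4, Mcpt1, Mcpt2, Mcpt9, and Tpsab1. For each of these, 0 of 185 cells allows a share of up to 1.62%, which limits cells with a UMI and not cells that make the protein. Tpsb2, a mast cell tryptase, was found in 1 cell. Cma1, the mast cell chymase, reached 57.9 CPM but came from 5 cells in 4 mice, and Kit, the receptor for stem cell factor that mast cells retain, was seen in 18 cells (9.73%) against 4.67% of other cells. Of 18 basophil genes besides the 3 of the gate, 15 were over 2-fold above the other cells, as were 1792 of the 11546 genes with a UMI in gated cells (15.5%), and 2 of the 18 had a single UMI. Eosinophil genes were low but not absent. The 10 summed to 111 CPM against 74.2 in the other cells and were higher in 6 of 9 mice, with 4 over 2-fold above the other cells. Alox15, a lipoxygenase, was seen in 23 cells (49.4 against 0.0876 CPM) and was higher in 9 of 9 mice, the peroxidase Epx was seen in 8 (13.6 against 0.287), Prg2 in 3, and Il5ra in 0. Markers of other marrow cells lay below the level of the other kept cells in 9 of 9 mice for neutrophils, monocytes and macrophages, erythroid cells, B cells, plasma cells, and dendritic cells. For B cells and dendritic cells the gate itself, with 0 UMIs of Cd79a and Siglech, favors this. The other kept cells also include the cells that make these markers, which favors it for every list. Neutrophil markers still summed to 46896 CPM in gated cells, against 149070 in the others. Megakaryocyte markers were higher in 6 of 9 mice, through Itga2b, an integrin also made by mast cell and basophil precursors (131 against 6.91 CPM), and T and NK cell markers in 4, through the granule protein Nkg7 (393 against 107).

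Of 23 genes of the IgE receptor and its signalling besides Fcer1a, 4 were over 2-fold above the other cells, near the 15.5% of all genes, and they were Ms4a2, Gab2, and the adaptors Lat (66.4 against 8.03 CPM) and Lat2 (170 against 30.99). The shared gamma chain Fcer1g (1079 against 836), and the kinases Lyn (52.8 against 126) and Syk (56.2 against 146), were not. Hdc, the enzyme that makes histamine, stood at 267 against 62.6, Slc18a2, the pump that loads it into granules, at 83.4 against 1.88, and Alox5, which starts leukotriene synthesis, at 155 against 25.8. Of 19 cytokines and chemokines, 10 were over 2-fold higher and 5 were lower by more than that factor. Il4, the type 2 cytokine for which basophils are known, was found in 19 cells (35.8 against 0.757 CPM), Il6 in 23 (42.6 against 0.119), and Il13 in 2. Hgf, hepatocyte growth factor, stood at 91.9 against 3.36 and the chemokine Ccl9 at 400 against 105. Of 38 receptors, of which 37 were matched by symbol, 14 were over 2-fold higher and 11 were lower by more than the same factor, 3 of them with no UMI in gated cells. The share of all genes lower by that factor was not taken, so counts of lower genes are given as values only. The interleukin 3 receptor chains Il3ra (76.6 against 15.8), Csf2rb (196 against 51.3), and Csf2rb2 (107 against 10.9) and the interleukin 33 receptor Il1rl1 (47.7 against 6.10) were among the higher ones, while Il4ra (5.11 against 14.6), Il6ra (15.3 against 43.2), and Ifngr2 (25.5 against 53.8) were among the lower, and the prostaglandin receptor Ptgdr2 had 0 UMIs. Of 25 transcription factors, 7 were over 2-fold higher, among them Gata2, Cebpa (240 against 19.5), and Runx1 (330 against 63.1), and 3 were lower by more than that factor. Gata1, also a factor of this lineage, was not (32.3 against 26.9), and Mitf, the mast cell factor, was seen in 3 cells (5.11 against 3.43).

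The limit of 3 gate UMIs was passed by a wide margin in most cells. The median was 73 gate UMIs and the highest 312, and 141 of 185 cells had at least 10. In the 17 cells with exactly 3, Cpa3 was seen in 52.9% and the promyelocyte protease Elane in 52.9%, and in the 36 cells just outside the limit with 2, Cpa3 in 22.2% and Elane in 55.6%. Of 2108 cells with at least 5 UMIs of Cd79a, which should lack these genes, 3 (0.142%) had any gate UMI and 1 had at least 3, at a median depth of 2115.5 UMIs against 2337 in gated cells. Free RNA was estimated at 0 to 35.6 UMIs per cell, which gives at most 0.00244 gate UMIs. Of the barcode sequences, 4 of gated cells occurred among kept cells of a second library and 0 were gated in both.

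Within the gate, 4 kinds of cell were told apart by limits that were set after the cells had been seen. They are described here without a test, and some unplanned alternatives below leave kinds out. The first held 117 cells with Prss34 in 9 mice. The second held 22 cells without Prss34, with Cpa3 at 3583 CPM against 2946 in the first, Kit at 338 against 14.1, Gzmb at 1095 against 24.7, and Cma1 at 318 against 60.1. Of these cells 14 came from NZB (5, 7, and 2 by mouse), 2 from NZW, and 6 from NZBWF1. Of the 18 gated cells with Kit 7 were of this kind, of the 5 with Cma1 3, and of the 15 with Gzmb 8. The third held 16 cells without Prss34 that had at least 10 UMIs of Elane and Mpo, proteins of the primary granules of neutrophil precursors, at 4748 and 7288 CPM. Their Mcpt8 was at 963 CPM, their Cpa3 at 97.1 CPM, and their median depth at 6578 UMIs. The fourth held 30 cells in which neutrophil granule genes took at least 3% of the UMIs (median 20.8%), with S100a8, a neutrophil calcium-binding protein, at 50920 CPM beside Prss34 at 11000. The highest share below that limit was 1.33% and the lowest above it 3.14%. Of these 30, 2 were among the barcodes of highest doublet score, and whether the others held more than 1 cell was not tested.

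**Figure D2:**
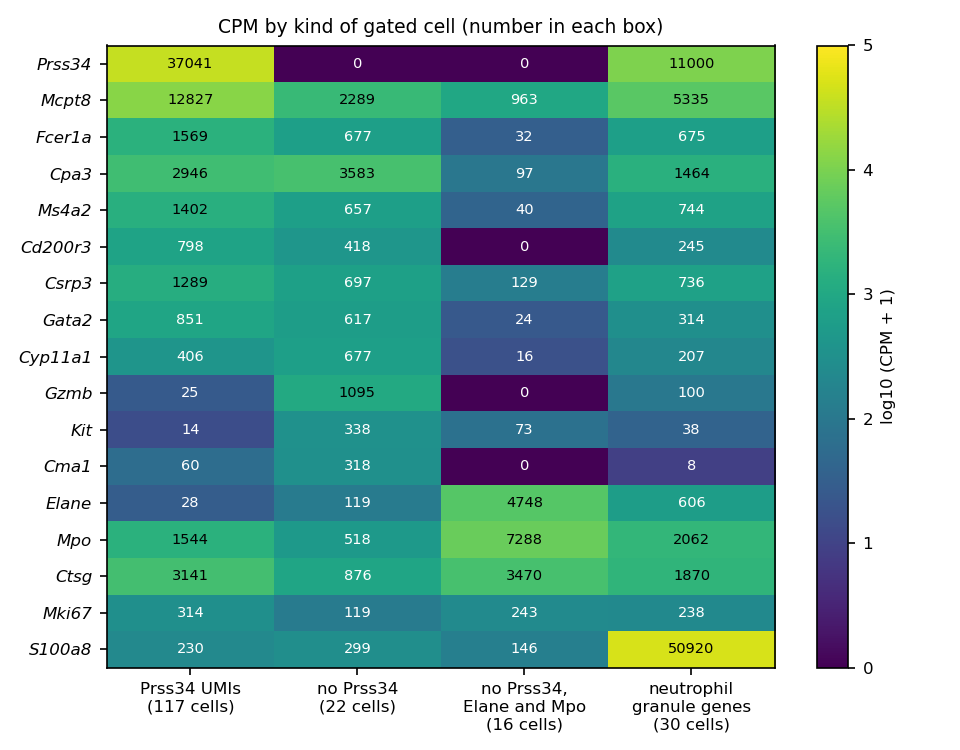
Heat map of CPM on a log color scale for 17 genes (rows) in the 4 kinds of gated cells (columns, 117, 22, 16, and 30 cells). Cpa3 is high in the first pair of kinds (2946 and 3583 CPM), Kit, Gzmb, and Cma1 are highest in the cells without Prss34, Elane and Mpo in the third kind, and S100a8 in the fourth.

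Some of the gated cells were dividing, without more division RNA than the other kept cells. The 24 division genes summed to 3871 CPM against 4485 and were higher in 4 of 9 mice, with 0 over 2-fold above the other cells. With at least 2 UMIs of 24 division genes as the limit, 93 of 185 cells (50.3%) divided, 60 of 117 with Prss34 (51.3%), 4 of 22 without it (18.2%), 13 of 16 with Elane and Mpo (81.2%), and 16 of 30 with neutrophil genes (53.3%). This limit is passed more easily at greater depth, and after thinning each cell to 1000 UMIs it was 78 of 185 (42.2%). Among cells with Prss34, Csf1 and several basophil genes were lower where cells divided. They are the genes lower in 8 of 9 mice among those compared, and the share over all genes was not taken. Csrp3 stood at 1025 CPM in dividing against 1735 in non-dividing cells, Gata2 at 755 against 1014, Cd200r3 at 676 against 1005, Csf1 at 45.0 against 228, Ccl9 at 282 against 910, and Ifitm1, an interferon-induced membrane protein, at 1723 against 2968, each lower in 8 of 9 mice. Ctsg, a protease of immature granulocytes, went the other way with 3716 against 2171 and was higher in 9 of 9 mice. Srgn was higher in dividing cells in 8 of 9 (3317 against 2484). The proteases Prss34, Mcpt8, and Cpa3 were higher in dividing cells in 6 of 9 mice each, and Fcer1a, Ms4a2, and Hdc in 5 of 9. The median depth was 2534 UMIs in dividing and 1604 in non-dividing cells, and its part in these differences was not tested.

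Each NZB mouse had a larger share of gated cells than any NZW or NZBWF1 mouse. The share was 0.570% (95% Wilson interval 0.340 to 0.955), 0.666% (0.477 to 0.929), and 0.731% (0.492 to 1.09) in the 3 NZB mice. It was 0.302% (0.176 to 0.516), 0.447% (0.298 to 0.670), and 0.343% (0.215 to 0.549) in NZW and 0.351% (0.185 to 0.665), 0.432% (0.291 to 0.642), and 0.475% (0.327 to 0.690) in NZBWF1. All 3 NZB mice were above all 6 others, while NZW and NZBWF1 overlapped. The separation was lost when cells were thinned to 1000 UMIs before the gate, where NZB replicate 1 at 0.367% lay below NZW replicate 2 at 0.408% and NZBWF1 replicate 3 at 0.422% (exact permutation p = 0.139). The intervals cover counting error only. The NZB mean of 0.656% ± 0.0807 compares with 0.364% ± 0.0749 for NZW and 0.419% ± 0.0631 for NZBWF1 (SD, n = 3 mice each). On the log scale NZB was 1.82-fold above NZW, and NZBWF1 stood at 0.638 of NZB and 1.16 of NZW. The two-sided exact permutation test over the 280 partitions of the 9 mice gave p = 0.0143. Adjusted by Benjamini-Hochberg for the 5 measures taken in each mouse, it was 0.0714 and did not pass. Between single pairs of strains, the exact permutation test gave p = 0.1, the smallest that 3 against 3 mice allow, for NZB against either other strain and p = 0.4 for NZBWF1 against NZW. A share can differ through these cells or through the others. With cells holding Cd79a left out of the total, the shares were 0.637%, 0.722%, and 0.822% in NZB, 0.453%, 0.608%, and 0.461% in NZW, and 0.519%, 0.549%, and 0.739% in NZBWF1, NZB and NZBWF1 overlapped, and the exact permutation test gave p = 0.111. Without the gated cells with neutrophil genes or Elane and Mpo, NZB stayed above the 6 others over all kept cells (exact permutation p = 0.025). That setting was not planned and uses kinds of cell set after the cells were seen, so its p is a description only. In a share of sequenced cells, fewer cells of a type and cells that fall below the UMI limit cannot be told apart. The paper gives a lower mean cell viability for NZB than for NZW and NZBWF1, and its part in the shares was not tested.

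**Figure D3:**
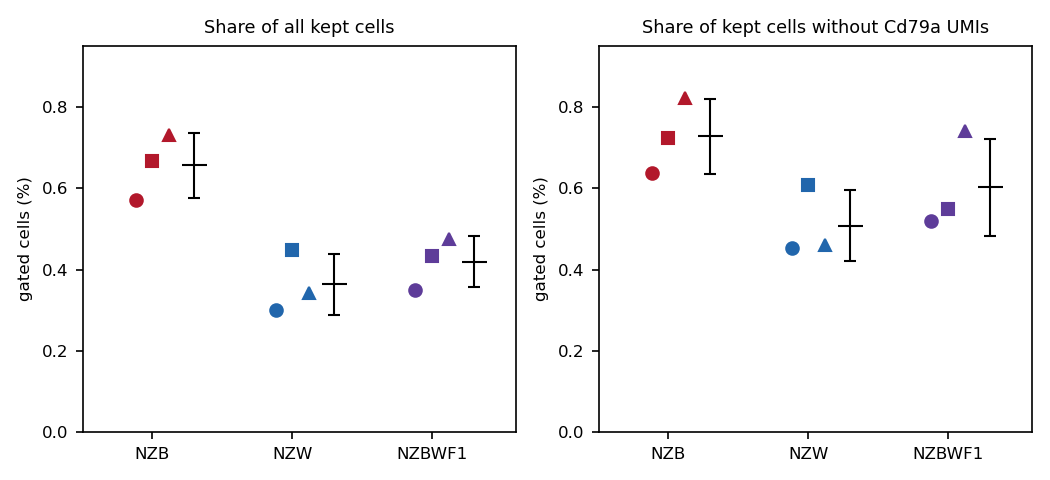
Percent of gated cells per mouse among all kept cells (left) and among kept cells without Cd79a UMIs (right), with a point for each of the 9 mice and a bar for the mean ± SD of the 3 mice of a strain. On the left the NZB mice lie between 0.570% and 0.731%, above the 6 others at 0.302% to 0.475%, and on the right NZB (0.637% to 0.822%) overlaps NZBWF1 (0.519% to 0.739%).

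The state of the gated cells did not pass a test between strains. The share of dividing cells, thinned to 1000 UMIs, was 40.1% ± 10.5 in NZB, 45.6% ± 1.86 in NZW (SD, n = 3), and 47.0% ± 1.64 in NZBWF1 (n = 2, exact permutation p = 0.571). NZBWF1 replicate 1 had 9 gated cells, under the minimum of 10, and is left out of this and of the gene tests below. Kit was seen in 5 of 72 thinned cells in NZB, 1 of 53 in NZW, and 1 of 51 in NZBWF1 (exact permutation p = 0.4). A mast cell protease was seen in 3 of 72 cells, 0 of 53, which allows a share of up to 5.66%, and 2 of 51 (exact permutation p = 0.207). This last comparison depended on NZB replicate 3, without which the exact permutation test gave p = 0.00952. The median depth of gated cells was 2278 to 3085 UMIs in the NZB mice, 1833 to 2244 in NZW, and 2269 to 3328 in NZBWF1 (exact permutation p = 0.232). NZW did not overlap NZB or the NZBWF1 mice in median depth, and its part in the results below was not tested.

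Prss34 was highest in NZW. It stood at 11909, 14318, and 26803 CPM in NZB, 27821, 32916, and 32764 in NZW, and 10716, 17233, and 15849 in NZBWF1. All NZW mice were above all others. Cells of the Prss34-positive kind made up 42 of 72 gated cells in NZB, 39 of 53 in NZW, and 36 of 60 in NZBWF1, so the mix of cells differed too, and its part in the level was not tested. Mcpt8 stood at 5946, 6610, and 11008 in NZB, 8148, 11434, and 9133 in NZW, and 3744, 6564, and 7319 in NZBWF1. Fcer1a stood at 561, 898, and 1720 in NZB, 1024, 1260, and 1094 in NZW, and 710, 815, and 745 in NZBWF1. For both, NZB and NZW overlapped. These 3 genes chose the cells and are given without a test. Cpa3 reached 1614, 1885, and 2767 CPM in NZB, 2654, 2966, and 2672 in NZW, and 925, 1827, and 1658 in NZBWF1, with NZB and NZW overlapping. Its log2 difference of NZB from NZW was −0.40 (SE 0.173, edgeR adjusted p = 0.307), and that of NZBWF1 from NZW −0.57 (SE 0.196, adjusted p = 0.263). Hdc, Ms4a2, Gata2, Cd200r3, and Cyp11a1 likewise did not pass in any strain comparison.

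To compare the parents, UMIs of the gated cells were summed per mouse and tested with the edgeR quasi-likelihood method in a fit of 8 mice. The sums held every kind of gated cell. NZB and NZW differed in 35 of 1197 genes tested (2.92%), 17 higher in NZB and 18 higher in NZW. For 143 genes the unadjusted p was under 0.05. Without the 16 cells with Elane and Mpo and the 30 with neutrophil granule genes, 44 of 592 genes were called, 14 of them ribosomal. Of the 35 genes, 24 were among those 44. That setting was chosen after the cells were seen. Among the 35, the smallest p went to the ferritin light chain, the iron storage subunit. Ftl1 (chromosome 7, 45457944 to 45459884) stood at 1954, 1697, and 2528 CPM in NZB, 23.3, 79.7, and 42.1 in NZW, and 839, 1209, and 1033 in NZBWF1. Its copy Ftl1-ps1 (chromosome 13, 74399694 to 74407346) showed the mirror image, with 34.0, 0, and 14.96 in NZB, 1327, 1579, and 1473 in NZW, and 796, 759, and 1053 in NZBWF1. In neither gene did any strain overlap another. The log2 difference of NZB from NZW was 5.27 (SE 0.333, edgeR adjusted p = 4.77e-23) for Ftl1, and for Ftl1-ps1, with 3 UMIs in all of NZB, NZW was 106-fold higher (95% counting interval 35.9 to 519, edgeR adjusted p = 1.27e-22). The pair are near-identical copies whose reads the counting can split, so each value is uncertain on its own. Of the UMIs of both, 98.3% to 100% were at Ftl1 in NZB, 1.72% to 4.81% in NZW, and 49.5% to 61.4% in NZBWF1. Their sum was 1697 to 2543 CPM in NZB, 1350 to 1659 in NZW, and 1635 to 2085 in NZBWF1, so that NZB and NZW did not overlap but differed far less. Promyelocyte-gated cells of the same mice, described below, gave much the same split, with 99.5% to 99.6%, 3.16% to 4.51%, and 53.6% to 55.9% at Ftl1.

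Csrp3 and the receptors Csf2rb2 and Spn were lower in NZB. Csrp3 (chromosome 7, 48830398 to 48848033) stood at 255, 643, and 718 CPM in NZB, 1257, 1674, and 1199 in NZW, and 839, 759, and 814 in NZBWF1, with each strain apart from the others. The log2 difference of NZB from NZW was −1.32 (SE 0.256, edgeR adjusted p = 0.000729), and no other of the 9 basophil genes tested passed. The median of those 9 was −0.40, against 0.01 over all genes tested. Within Prss34-positive cells alone the difference was −0.79 and was not called. It was not called without dividing cells either, but only NZW replicate 2 of its strain had enough cells for that fit. Csf2rb2 (chromosome 15, 78282507 to 78305721), the mouse beta chain that serves interleukin 3, stood at 34.0, 33.3, and 59.8 CPM in NZB, 279, 207, and 147 in NZW, and 108, 70.3, and 119 in NZBWF1, from 9, 32, and 17 UMIs in the mice of the fit. The strains did not overlap, and the log2 difference of NZB from NZW was −2.27 (SE 0.592, edgeR adjusted p = 0.0184). The call was lost without NZB replicate 2 (−2.08, edgeR adjusted p = 0.113) and without the members carrying neutrophil granule genes (edgeR adjusted p = 0.101). Spn, the sialophorin CD43, was the other receptor that passed of 10 tested, with 136, 88.7, and 150 in NZB against 279, 367, and 274 in NZW (−1.34, SE 0.362, edgeR adjusted p = 0.0233). That call was lost without NZB or NZW replicate 2 (−1.10 and −1.18) and under 6 other settings, so that Spn kept it in 14 of 22 alternatives. The median of the 10 receptors was −0.65. Of 14 division genes tested 1 passed, Ube2c (−1.16, SE 0.304, edgeR adjusted p = 0.0259), with a median of −0.52, and Stmn1, a tubulin-binding protein high in dividing cells, was lower in NZB as well (−1.08, SE 0.233, adjusted p = 0.00195). Ube2c was not called without NZB replicate 2 or 3 or NZW replicate 1 or 2 (−1.23 to −0.87), nor under 4 other settings, a gate of at least 5 UMIs among them, and kept its call in 14 of 22 alternatives. Of the IgE receptor and its signalling 0 of 5 passed, of histamine and lipid mediators 0 of 4, of cytokines and chemokines 0 of 4, and of transcription factors 0 of 9, with medians of −0.38, 0.16, −0.57, and −0.18. Over all genes tested 2.92% were called (35 of 1197), and at that share lists this short hold few calls or none. In promyelocyte-gated cells, Csrp3 (−2.96, edgeR adjusted p = 0.00425), Spn (−0.47, adjusted p = 0.00145), and Stmn1 (−0.70, adjusted p = 2.58e-08) were lower in NZB too. Csf2rb2 (0.78, edgeR adjusted p = 0.132) and Ube2c (0.20, adjusted p = 0.214) were not called there.

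Ifitm2 and Ctse were lower in NZB, and Rps3a1 was higher. Ifitm2 (chromosome 7, 140954837 to 140955987), an interferon-induced protein of membranes, stood at 629, 732, and 553 CPM in NZB, 2794, 2265, and 2231 in NZW, and 1119, 1195, and 1092 in NZBWF1. NZBWF1 lay between the parents with no overlap. The log2 difference of NZB from NZW was −1.91 (SE 0.209, edgeR adjusted p = 1.71e-11). Ctse (chromosome 1, 131638306 to 131675505), cathepsin E, stood at 17.0, 22.2, and 0 in NZB, 140, 207, and 274 in NZW, and 151, 98.4, and 169 in NZBWF1. From 3 UMIs in NZB and 32 in NZW, NZW was 15.03-fold higher (95% counting interval 4.70 to 76.7, edgeR adjusted p = 0.000556). Rps3a1, a ribosomal protein, stood at 7101, 6887, and 6267 in NZB, 2351, 2552, and 2399 in NZW, and 5100, 4357, and 4618 in NZBWF1 (log2 difference 1.47, SE 0.135, edgeR adjusted p = 8.03e-15), whereas another, Rpl21, was lower in NZB (−0.82, SE 0.170, adjusted p = 0.00108). Ribosomal protein genes can share reads with their many processed copies. mt-Co1, a mitochondrial subunit of cytochrome oxidase, stood at 5538, 6000, and 4113 in NZB, 7822, 7017, and 8080 in NZW, and 7746, 7506, and 6882 in NZBWF1 (−0.55, SE 0.125, edgeR adjusted p = 0.00433). Of 6 interferon genes tested, Ifitm2 passed in this direction and Apobec3, which restricts retroviruses, in the other (2.27, SE 0.639, edgeR adjusted p = 0.0278), with 272, 166, and 165 CPM in NZB against 93.1, 15.9, and 21.0 in NZW. Over all genes tested 2.92% were called. Of 10 genes taken from the study's account of these libraries 5 were tested here (Ftl1, Ftl1-ps1, Ifitm2, Ctse, and Apobec3). All 5 were called between the parents, which is not independent of that choice. The study named these 5 for another contrast, as higher in NZBWF1 than in its parents. Against the mean of the parents' logs, only Ftl1 and Ftl1-ps1 of the 5 were called in gated cells. Nkg7 was higher in NZB at 680, 555, and 538 against 210, 351, and 295 CPM (1.01, SE 0.292, edgeR adjusted p = 0.0335). Apobec3 was not called without NZB replicate 1 or 2 or NZW replicate 2 or 3 (1.79 to 2.40). Nor was Nkg7 without NZB replicate 1 or 2 or any NZW mouse (0.85 to 1.20), among Prss34-positive cells, or by DESeq2. Nkg7 reversed (−0.044) with dividing cells left out, where NZW replicate 2 was the only NZW mouse. mt-Co1 was not called without NZW replicate 3 (−0.50), nor at no more than 5% mitochondrial UMIs. The choice of cells limits mitochondrial UMIs, so the test of mt-Co1 is not independent of that choice. Without NZB replicate 2 the number of genes called was 13 (5 higher and 8 lower in NZB), and without NZW replicates 1, 2, and 3 it was 18 (7 and 11), 14 (4 and 10), and 15 (3 and 12), so that the even balance did not hold. The 8 genes of smallest p (Ftl1, Ftl1-ps1, Rps3a1, Ifitm2, Ctse, Csrp3, Rpl21, and Stmn1) kept their calls whichever of the 8 mice was left out. Rps3a1, Ifitm2, Csrp3, Rpl21, and Stmn1 were not called without dividing cells. NZW replicate 2 was the only NZW mouse in that fit, so the part of the dividing cells cannot be told from the loss of mice and cells. Over all alternatives the log2 difference of Rps3a1 lay between 1.39 and 1.63. Nkg7 kept its call in 12 of 23 alternatives, mt-Co1 in 19 of 23, and Apobec3 in 12 of 16. In promyelocyte-gated cells, Ifitm2 (−1.01), Ctse (−3.92), Rpl21 (−1.06), and mt-Co1 (−0.55) were also called lower in NZB than in NZW. Rps3a1 (0.81), Apobec3 (2.24), and Nkg7 (0.32) were called higher in NZB there as well.

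**Figure D4:**
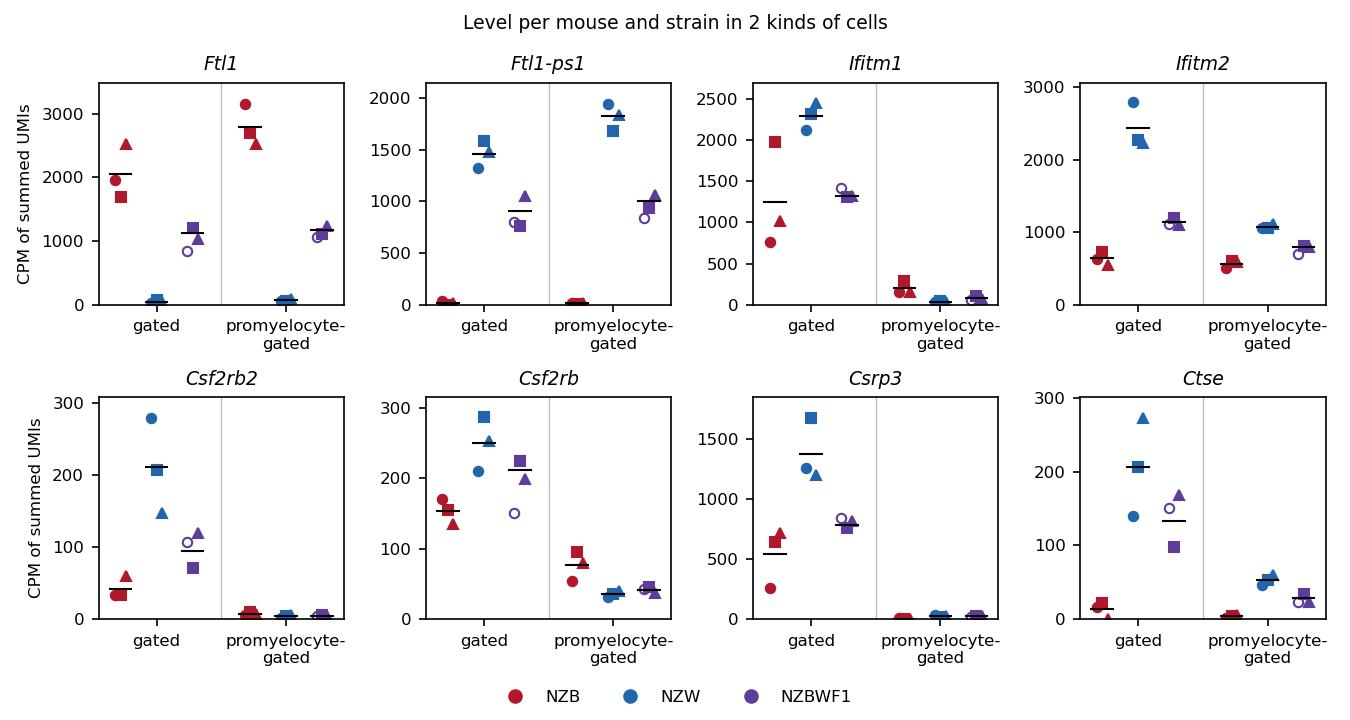
CPM per mouse of 8 genes in gated cells and in promyelocyte-gated cells of the same mice, by strain, with a line for the mean of each strain. NZBWF1 replicate 1, with 9 gated cells, is drawn hollow and is not in the means. Ftl1 and Ftl1-ps1 change places between NZB and NZW in both kinds of cells, while Ifitm1 is higher in NZW in gated cells (2119 to 2441 against 765 to 1974 CPM) and in NZB in promyelocyte-gated cells (151 to 290 against 33.9 to 45.3 CPM).

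Few genes were called between the hybrid and its parents, in a fit with 2 NZBWF1 mice. In promyelocyte-gated cells, with more cells per mouse, 43 of 9593 genes were called against the parental mean. Against NZB 359 were called there and against NZW 103. The part of cell number and depth in the low counts here was not tested. Against the mean of the parents' log values, 3 of 1197 genes passed (0.251%), all higher in NZBWF1, with 59 genes at an unadjusted p under 0.05. They were Ftl1-ps1 (log2 difference 2.68, SE 0.319, edgeR adjusted p = 1.92e-09), Ftl1 (1.85, SE 0.259, adjusted p = 2.37e-07), and Psap. For both ferritin genes the CPM of every NZBWF1 mouse lay between the parents, and a mean of logs lies low where a parent is near 0. Psap, which encodes the saposins that activate lysosomal lipid breakdown, stood at 51.0, 77.6, and 0 CPM in NZB, 46.6, 144, and 168 in NZW, and 108, 394, and 169 in NZBWF1. NZBWF1 replicate 2 was the highest by far. The difference of 1.91 (SE 0.447, edgeR adjusted p = 0.0490) was called in 3 of 8 fits that left out a mouse, and in none that left out NZB replicate 1 or 3, NZW replicate 1 or 2, or NZBWF1 replicate 2. Over all alternatives Psap kept this call in 7 of 19 (0.85 to 2.51). It was also lost by DESeq2, with other size factors, with each other gate, and with NZBWF1 replicate 1 included. The number called was 8 without NZB replicate 1, 5 without NZW replicate 1, 10 without NZW replicate 3, and 6 without NZBWF1 replicate 3. The contrasts with the hybrid share mice and are set side by side.

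Against NZB, 8 genes of 1197 passed (0.668%), 6 higher and 2 lower in NZBWF1, with 96 at an unadjusted p under 0.05. The higher ones were Ftl1-ps1, Psap (2.597, SE 0.558, edgeR adjusted p = 0.0147), Ctse, Ifitm2 (0.93, SE 0.229, adjusted p = 0.0246), mt-Co1 (0.56, SE 0.137, adjusted p = 0.0246), and mt-Co3 (0.45, SE 0.119, adjusted p = 0.0465). The lower ones both serve protein folding in the endoplasmic reticulum, the chaperone Hsp90b1 (−1.09, SE 0.247, edgeR adjusted p = 0.0147) and Manf (−1.09, SE 0.288, adjusted p = 0.0465). Hsp90b1 stood at 1206, 1508, and 2094 CPM in NZB and 1313, 647, and 765 in NZBWF1, and Manf at 748, 865, and 942 against 689, 351, and 397. In NZW, Hsp90b1 stood at 1048, 1419, and 1115 and Manf at 792, 957, and 547, so that both NZBWF1 mice of the fit lay below all mice of either parent, although neither gene was called against NZW. Here the first NZBWF1 value is the mouse outside the fit. With that mouse included, both calls were lost. Over all alternatives Hsp90b1 kept its call in 17 of 23, mt-Co1 in 14, Manf in 8, and mt-Co3 in 7. At no more than 5% mitochondrial UMIs, mt-Co1, mt-Co3, and Manf were not called. The choice of cells limits mitochondrial UMIs, so the tests of mt-Co1 and mt-Co3 are not independent of that choice. Whichever mouse of the fit was left out, Ftl1-ps1 kept its call. Psap lost it without NZBWF1 replicate 2 (1.90), and the other 6 lost theirs without NZB replicate 3, and also without NZBWF1 replicate 3. The number called was 2 without NZBWF1 replicate 2, 3 without NZBWF1 replicate 3, and 4 without NZW replicate 2. In promyelocyte-gated cells, NZBWF1 from NZB was also called for Ftl1-ps1 (6.34), Ctse (3.00), Ifitm2 (0.53), mt-Co1 (0.30), Hsp90b1 (−0.65), and Manf (−0.52). Psap (−0.18) and mt-Co3 (0.21) were not called there. Against NZW, 3 genes passed (0.251%), with 79 at an unadjusted p under 0.05. Ftl1 (4.49, SE 0.359, edgeR adjusted p = 3.02e-17) and Rps3a1 (0.98, SE 0.147, adjusted p = 1.78e-06) were higher in NZBWF1 and Ifitm2 was lower (−0.99, SE 0.226, adjusted p = 0.0150), the last not called without NZW replicate 1 or either NZBWF1 mouse (−1.06 to −0.88). Ifitm2 kept this call in 14 of 23 alternatives (−1.06 to −0.55 over all of them). Rps3a1 kept its call in 21 of 23. It lost it at no more than 5% mitochondrial UMIs and without dividing cells, where NZW replicate 2 was the only NZW mouse. The number called was 8 without NZB replicate 1, 5 without NZW replicate 1, and 9 without NZW replicate 3. By edgeR, 0 genes were called higher than each parent or lower than each. Neutrophil markers moved with this comparison, since the 11 genes summed to 75689 and 78195 CPM in the NZBWF1 mice of the fit, 31905 to 36106 in NZB, and 17880 to 40844 in NZW, with all 11 detected and 0 of 11 called in any strain comparison. B cell markers summed to 318 and 422 CPM in NZBWF1 against 66.5 to 135 in NZB and 42.1 to 93.1 in NZW. Monocyte and macrophage markers summed to 348 and 562 CPM in NZBWF1 against 84.9 to 211 in NZB and 168 to 383 in NZW, and dendritic cell markers to 119 and 253 against 89.7 to 170 and 21.04 to 69.8. The part of these lists in these differences was not tested. Without the cells carrying neutrophil genes, 3 genes were called against NZB, namely Ftl1-ps1, Ifitm2, and Hsp90b1. Psap did not pass the filter on low counts there, which left the 2 ferritin genes as calls in the comparison with the parental mean.

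Whether the difference between the parents was particular to the gated cells was asked with promyelocyte-gated cells of the same mice. These were 4493 cells with at least 3 UMIs of Elane and Mpo that were not gated, a limit meant for granulocyte-monocyte precursors and promyelocytes. The test was of the difference between both strain effects, with the mouse as a block. The gated sums still held the 16 cells with Elane and Mpo and the 30 with neutrophil granule genes. Their median depths were 6578 and 3840 UMIs, against 2063 in Prss34-positive cells. The 16 were 2, 4, and 0 by mouse in NZB and 1, 1, and 2 in NZW. Without the 30, a choice made after the cells were seen, 64 genes were called, 44 of them ribosomal. The comparison was not run without the 16. Of 1197 genes, 62 differed (5.18%), 54 with a higher NZB to NZW ratio in gated cells and 8 with a lower ratio, and 175 had an unadjusted p under 0.05. The smallest p went to Ifitm1 (chromosome 7, 140967221 to 140969825). In gated cells it stood at 765, 1974, and 1017 CPM in NZB, 2119, 2312, and 2441 in NZW, and 1420, 1307, and 1321 in NZBWF1. In promyelocyte-gated cells it stood at 151, 290, and 159 in NZB, 35.6, 45.3, and 33.9 in NZW, and 51.8, 104, and 67.5 in NZBWF1. Thus NZB was below NZW in the first and above it in the second, with no overlap in either. The log2 difference of NZB from NZW was −0.84 (SE 0.267, edgeR adjusted p = 0.155) in gated cells and 2.34 (SE 0.391, adjusted p = 0.0167) in promyelocyte-gated cells. The difference between them was −3.16 (SE 0.253, edgeR adjusted p = 2.16e-13), and it kept its call in 11 of 11 alternatives. Ifitm2, its neighbor, was lower in NZB in both kinds of cells, more so in gated cells (difference −0.87, SE 0.212, edgeR adjusted p = 0.00573).

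Both beta chains of the interleukin 3 receptor had a lower NZB to NZW ratio in gated cells. Csf2rb2 stood at 5.93, 9.18, and 6.91 CPM in NZB and 1.95, 4.37, and 6.13 in NZW in promyelocyte-gated cells, where the strains overlapped, unlike the gated cells above (difference −3.04, SE 0.797, edgeR adjusted p = 0.0114). Csf2rb, the common beta chain (chromosome 15, 78325752 to 78353847), stood at 170, 155, and 135 in NZB and 210, 287, and 253 in NZW in gated cells, and at 53.8, 94.8, and 79.5 against 31.7, 36.2, and 39.2 in promyelocyte-gated cells (difference −1.71, SE 0.447, edgeR adjusted p = 0.0114). For Csf2rb the groups did not overlap in either, and NZB from NZW was −0.71 (SE 0.356, edgeR adjusted p = 0.406), not called, in gated cells and 1.047 (SE 0.162, adjusted p = 1.79e-05) in promyelocyte-gated cells. The pair are close paralogs, so reads may be split between them. Both calls were lost without NZB replicate 2 (edgeR adjusted p = 0.210 for Csf2rb2 and 0.181 for Csf2rb), and that of Csf2rb without NZW replicate 2 (edgeR adjusted p = 0.114). Of 14 division genes tested, Ube2c (−1.31, SE 0.324, edgeR adjusted p = 0.00959) and Rrm2 (−1.58, SE 0.463, adjusted p = 0.0304), which supplies DNA synthesis, had a lower NZB to NZW ratio in gated cells, and the 14 had a median of −0.80 against −0.04 over all genes tested. Of all genes in this comparison 5.18% were called. Without NZB replicate 2 neither was called, nor was Ube2c without NZW replicate 1 or Rrm2 without NZW replicate 3.

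Ribosomal protein genes made up most of the 54. Of 81 tested, 47 had a higher NZB to NZW ratio in gated than in promyelocyte-gated cells and 0 a lower ratio. The median of the 81 was 0.56, and all 81 differences were above 0. Rpl23 (0.77, SE 0.125, edgeR adjusted p = 9.19e-05), Rpl6 (0.84, SE 0.142, adjusted p = 0.000155), Rps10 (0.77, SE 0.133, adjusted p = 0.000155), and Rpsa (0.67, SE 0.121, adjusted p = 0.000281) led them. In gated cells these genes took 27.2%, 28.4%, and 24.3% of the UMIs in NZB, 23.6%, 21.5%, and 22.6% in NZW, and 23.6%, 23.3%, and 24.3% in NZBWF1, where the first value is again the mouse outside the fit. In promyelocyte-gated cells they took 23.8%, 22.6%, and 22.5% in NZB, 25.7%, 25.5%, and 28.4% in NZW, and 22.2%, 25.4%, and 25.0% in NZBWF1. NZB was above NZW in gated cells and below it in promyelocyte-gated cells, with no overlap in either. The mean was 26.6% ± 2.12 against 22.6% ± 1.04 in the first and 22.96% ± 0.695 against 26.5% ± 1.63 in the second (NZB against NZW, SD, n = 3). Gene by gene, NZB against NZW had 6 of 81 called higher and 2 lower in gated cells (median 0.26), and 2 of 82 higher and 50 lower in promyelocyte-gated cells (median −0.30), where 1348 of 9593 genes were called (14.1%). CPM are relative to a cell's total, and the 1116 other genes had a median difference of −0.07. Without NZB replicate 2 the number of genes called was 28, of them 22 ribosomal, without NZW replicate 2 it was 41 (33), without NZW replicate 3 it was 43 (29), and with every gene in the fit it was 27 (15). The depth of the gated cells and the share of UMIs taken by gate genes in NZW (36994 to 45610 CPM against 18416 to 39531 in NZB) moved with the same strains, and their part was not tested.

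**Figure D5:**
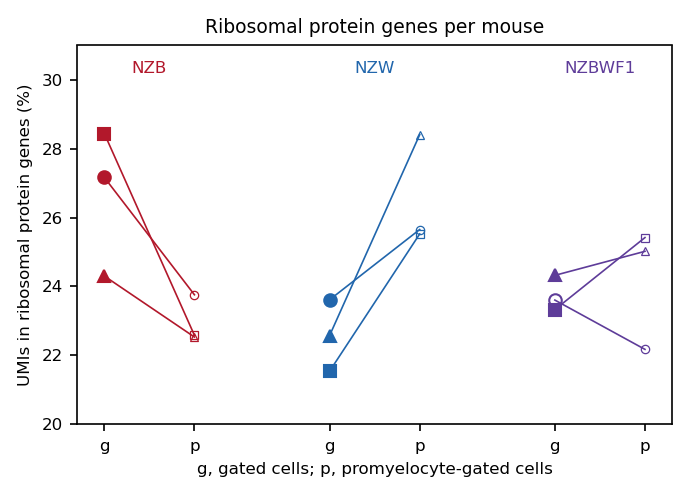
Percent of UMIs in ribosomal protein genes per mouse in gated (g) and promyelocyte-gated (p) cells, with a line joining both values of a mouse and an axis from 20% to 31%. The lines fall from gated to promyelocyte-gated cells in the 3 NZB mice and rise in the 3 NZW mice, while NZBWF1 replicate 1 falls (23.6% to 22.2%) and the other two rise.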

How the data were processed

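Femur bone marrow of 9 mice was sequenced as 10x Chromium 3′ single cell libraries. Per the labels and the submitters' processing notes, the authors made the deposited counts (UMIs per gene and barcode) with bcl2fastq 2.20 and Cell Ranger 3.1.0 on build mm10 and merged the libraries, and the annotation release and any thinning of depth on merging are not given in the sources used here. The library number in each barcode was matched to a mouse through the deposited list of libraries. Of 68444 called barcodes, 39051 passed the limits of 1000 UMIs, 500 genes, and 10% mitochondrial UMIs, and the deposited matrix of all barcodes gave the free RNA (barcodes under 100 UMIs). Doublets were scored by simulation in scanpy 1.11.5 and left out only in an alternative. The 185 gated cells held 1019 to 15825 UMIs each, and summed to 42953 to 100702 per mouse in the fit.

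UMIs were summed per mouse and tested with the edgeR 4.0.16 quasi-likelihood method in R 4.3.3 (TMM factors, filterByExpr, robust fit, Benjamini-Hochberg threshold 0.05). Mice with fewer than 10 gated cells were left out of gene tests and subset shares, which removed NZBWF1 replicate 1. The comparison with promyelocyte-gated cells (at least 3 UMIs of Elane and Mpo) used the mouse as a block. Values per mouse were compared by two-sided exact permutation tests in Python 3.11.15. CPM here are UMIs over the summed UMIs of the cells. DESeq2 1.42.0, other scaling, gates, and filters were tried as alternatives, and scripts were tested on simulated data. Replicates are separate mice. Shares of UMIs and cells carry counting error only in their intervals.

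The members and the 25 gene lists were chosen with earlier results of these data known. Named genes were the 4 markers, the 20 genes of highest CPM ratio to the other cells among those with at least 50 CPM, list members, up to 8 called genes of smallest p per strain comparison, genes called the same way against each parent, and up to 5 of smallest p in the comparison with promyelocyte-gated cells, with values per mouse for markers and genes called in several strain comparisons and for other called genes chosen after their values were seen. The limits of the 4 kinds of gated cells were also set after the cells were seen. Gene positions are from GENCODE vM21 on GRCm38 and promoter windows from RefSeq.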

Additional observations from a re-analysis of the deposited data

Results flagged for a closer look

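The effect of strain differed between gated and promyelocyte-gated cells, by the edgeR test of the difference itself, in 62 of 1197 genes. The log2 differences, NZB against NZW in gated cells minus the same in promyelocyte-gated cells, were −3.16 for Ifitm1, −0.87 for Ifitm2, −1.71 for Csf2rb, and −3.04 for Csf2rb2. They were −1.31 for Ube2c and −1.58 for Rrm2, and among ribosomal protein genes 0.77 for Rpl23, 0.84 for Rpl6, 0.77 for Rps10, and 0.67 for Rpsa.

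Among barcodes that the quality limits left out, 64 had at least 3 UMIs of Mcpt8, Prss34, and Fcer1a. These barcodes lie outside every comparison given here.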

How the results depend on the processing

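The log2 share of gated cells in NZB over NZW was 0.861 and kept its direction in every alternative run. Its unadjusted exact permutation p of 0.0143, which did not pass once adjusted, rose above 0.05 with the replicate block (0.861, p = 0.0556), a gate of at least 5 UMIs (0.653, p = 0.0929), cells thinned before the gate (0.662, p = 0.139), cells without Cd79a as the total (0.525, p = 0.111), or, chosen after seeing the data, neutrophil genes and Cd79a left out of members and total (0.497, p = 0.0536). Leaving out 1 mouse gave 0.735 to 1.02 for this share, −10.4 to 0.025 percentage points for dividing cells (reversed at 0.0246 without NZB replicate 3), 2.96 to 10.1 for Kit, 2.94 to 6.51 for mast cell proteases, and 0.181 to 0.399 for the log2 median depth. Nkg7 reversed to −0.044 without dividing cells, in a fit with NZW replicate 2 as its only NZW mouse. Genes called without 1 mouse ran from 2 to 10 for the hybrid set against its parents' mean log, 2 to 12 against NZB, 3 to 9 against NZW, 13 to 52 for NZB against NZW, and 28 to 86 for the comparison with promyelocyte-gated cells. Other settings moved these counts by over 1.5 times. Against that mean (3 genes) they gave 15 with every gene, 18 with the replicate block, 15 at no more than 5% mitochondrial UMIs, 8 without the highest doublet scores, and 5 without neutrophil or Elane and Mpo cells as with Prss34-positive cells alone. Against NZB (8) they gave 4 by DESeq2, 17 with the block, 5 with a gate of 2 UMIs, 53 at 5% mitochondrial UMIs, and 3 each without dividing cells, without neutrophil cells, and with Prss34-positive cells. Against NZW (3) they gave 5 by DESeq2 (4 higher and 1 lower, against 2 and 1), 7 with every gene, 17 with the block, 6 with a gate of 2 UMIs, 6 at 5% mitochondrial UMIs, and 1 without dividing cells. For NZB against NZW (35) they gave 18 by DESeq2, 19 with every gene, 23 with a gate of 5 UMIs (8 higher and 15 lower), 11 at 5% mitochondrial UMIs, 2 without dividing cells, and 20 with Prss34-positive cells, and a gate of 2 UMIs gave 11 higher and 22 lower. The comparison with promyelocyte-gated cells (62) gave 27 with every gene. The fit without dividing cells held 5 mice and 579 genes, that at 5% mitochondrial UMIs 7 mice and 796 genes, and that with every gene 11428 genes. In the first of these NZW replicate 2 was the only NZW mouse, so calls lost there cannot be told from the loss of mice and cells. Otherwise the cause was not tested. Same-numbered mice correlated at −0.133 to 0.0707 in their deviations from strain means. Such deviations cancel within each strain of so few mice, so these values cannot show whether replicate numbers pair the mice. For single genes 608 values kept direction and call, 165 kept direction only, and 1 reversed. Depth limits rare transcripts, with 42953 to 100702 UMIs behind each mouse.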

Other observations

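A few more called genes, chosen after their values were seen, are given as values. Cd81, a tetraspanin (chromosome 7, 143052739 to 143067934), had 170, 111, and 165 CPM in NZB, 0, 15.9, and 0 in NZW, and 86.1, 127, and 89.4 in NZBWF1, and from 1 UMI in NZW its NZB to NZW ratio was 21.996 (95% counting interval 3.67 to 896, edgeR adjusted p = 0.0172). The log2 difference of NZB from NZW in gated cells minus the same in promyelocyte-gated cells was 4.62 for Cd81 (edgeR adjusted p = 0.000582) and 1.88 for Tspan32, another tetraspanin (chromosome 7, 143005046 to 143019644, edgeR adjusted p = 0.0332). Rac2, a small GTPase (chromosome 15, 78559167 to 78572783), was lower in NZB than in NZW by −0.94 (SE 0.258, edgeR adjusted p = 0.0258).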
